A study of Mus musculus with 21 samples.

Results

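Mitochondria make most of the ATP of a cell at the respiratory chain, and the genes described here encode the nuclear part of that machinery. Members were all probe sets assigned to a single gene whose symbol starts with Nduf, Sdh, Uqcr, Cox4, Cox5, Cox6, Cox7, Cox8 or Atp5. The rule uses the symbol alone and no measured value, and it gave 185 of the 45101 probe sets and 94 of the 18194 genes on the array. A probe set is a group of short probes against one transcript, and 53 of the member genes had several. Of the members, 180 probe sets of 93 genes passed the filter on low values. The one gene below it was Cox7b2, a testis-type subunit of cytochrome c oxidase. A single further probe set each of Sdha, Atp5g1, Atp5g2 and Sdhaf3 also stayed below it.

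In the respiratory chain, complex I (NADH dehydrogenase) and complex II (succinate dehydrogenase) pass electrons to coenzyme Q, complex III passes them on to cytochrome c, and complex IV (cytochrome c oxidase) hands them to oxygen. Complexes I, III and IV pump protons across the inner membrane, and ATP synthase uses the returning protons to make ATP. Most subunits are nuclear genes, a few are encoded by mitochondrial DNA, and assembly factors such as the Ndufaf and Sdhaf proteins help to build the complexes without being part of them. Several subunits of complex IV exist in a widely expressed form and in a form made mainly in heart and skeletal muscle.

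Dorsal skin was taken from female albino hairless mice (Hos:HR-1), which were 6 weeks old at purchase and acclimated for 1 week. Irradiated mice were exposed under isoflurane 3 times a week to fluorescent UV lamps, and the dose rose each week by 1 MED, the minimal erythema dose of 100 mJ per square centimetre, up to 4 MED. The 7 groups were non-irradiated skin at weeks 1 and 8 (control week 1, control week 8) and skin irradiated for 1, 2, 4, 6 or 8 weeks (UV week 1 to UV week 8), each with 3 animals on 3 Affymetrix arrays of the mouse genome. All values below are log2 intensities, and differences are differences of group means on that scale. UV weeks 2, 4 and 6 have no control of their own week, so that duration of the experiment and UV cannot be told apart there.

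The arrays differed in a measure of RNA integrity, the log2 ratio of the 3' to the 5' probe set of beta-actin. It lay between 4.05 and 5.14 in 8 arrays and between 2.26 and 3.46 in the other 13. The 8 arrays were control week 1 array 12, UV week 1 arrays 112 and 114, UV week 4 array 333, UV week 6 arrays 441 and 445, and UV week 8 arrays 552 and 555. Control week 8 had none by this measure. The same log2 ratio taken from Gapdh ordered the groups differently. It was 4.85 to 6.21 in control week 8, with a mean of 5.68, the highest of the groups. In UV week 8 the Gapdh ratio was 2.37 to 6.09, with a mean of 4.79. Correlations between replicate arrays, over the probe sets that passed the filter on low values, were between 0.957 and 0.996. The keratinocyte and dermal fibroblast markers were all measured (10 of 10 and 8 of 8). Their mean levels were 11.46 to 12.97 and 10.34 to 12.12 over the arrays.

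Few respiratory chain genes passed the test in UV-irradiated skin. At UV week 8 against control week 1, 9 of the 93 genes were lower and 0 were higher (limma, Benjamini-Hochberg adjusted p of 0.05 or less over all tested probe sets). Over all 17403 genes tested, 8.35 percent were lower and 5.72 percent were higher, so that the members' share of 9.68 percent lower was near the background. Before adjustment, 24 members were lower and 12 were higher at p under 0.05 (limma). The share of all genes before adjustment was not counted, so that such counts, here and below, have no background beside them. The median difference of the members was -0.08, beside 0.05 over all genes, and single members ranged from -1.29 to 0.59. Against control week 8, the control of the same week, 0 of the 93 genes passed in either direction, where the background was 5.29 percent lower and 2.8 percent higher. There the members' median was 0.05, beside 0.06 over all genes, and before adjustment 12 members were lower and 11 higher (p under 0.05, limma).

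**Figure D1:**
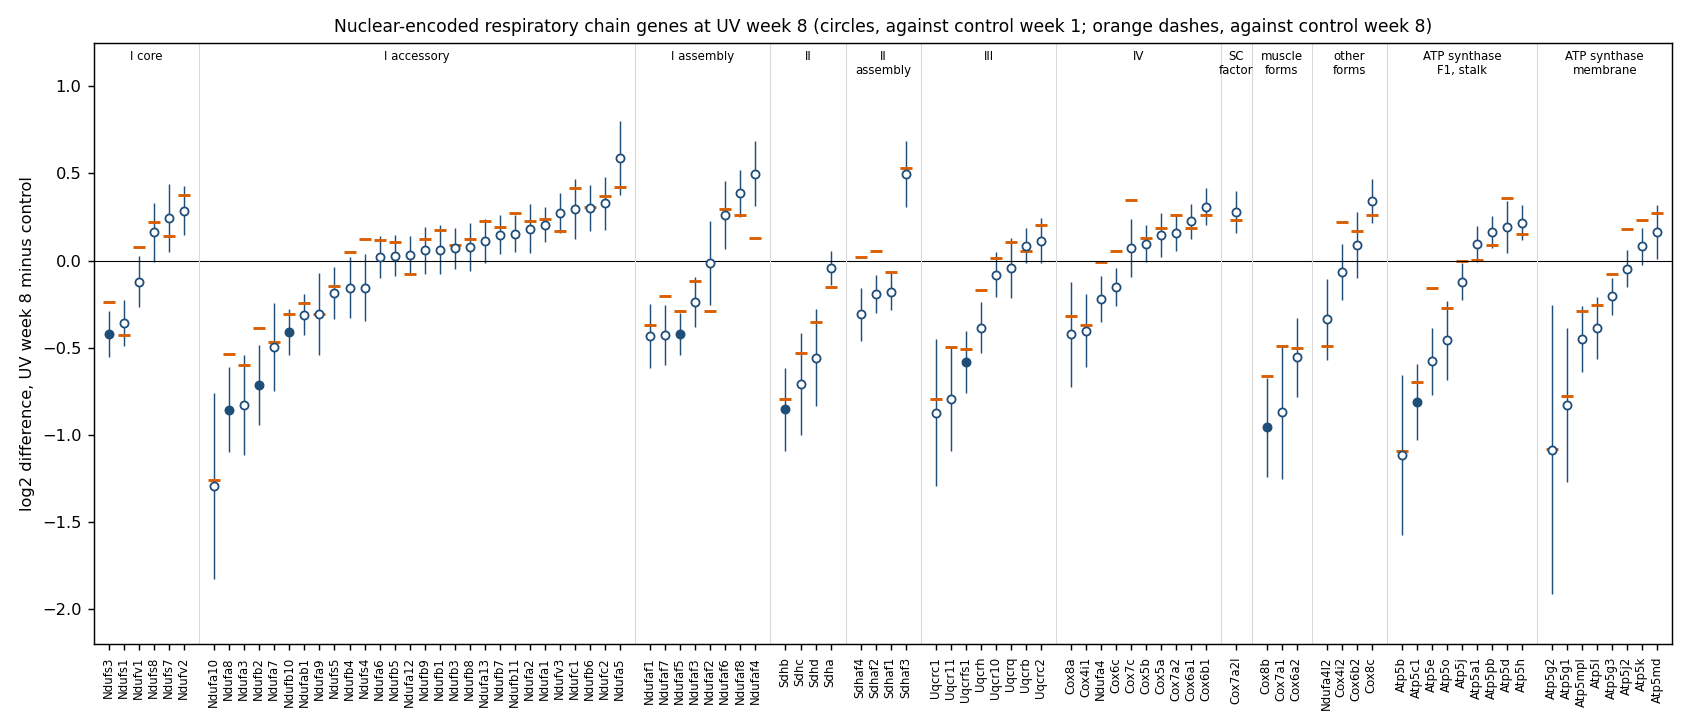
Difference in log2 intensity between UV week 8 and the controls (vertical axis) for each of the 93 respiratory chain genes tested (horizontal axis), grouped by complex or role; SC factor is the supercomplex factor Cox7a2l. Circles with bars give the difference from control week 1 with its standard error, filled where the adjusted p was at most 0.05 (9 genes, all lower), and orange dashes give the difference from control week 8, where no gene passed; single genes ranged from -1.29 to 0.59 against control week 1.

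The earlier weeks gave fewer calls. At UV week 6, 3 members were lower (Atp5c1, Ndufa8, Ndufaf5) and 2 were higher (Cox8c, Sdhaf3), with backgrounds of 7.65 percent lower and 5.29 percent higher. At UV week 4, 0 members passed, with backgrounds of 1.16 and 0.517 percent, and before adjustment 3 were lower and 1 higher (p under 0.05, limma). UV week 2 also had 0, with backgrounds of 0.046 and 0.0287 percent and 4 members lower and 0 higher before adjustment (p under 0.05, limma). At UV week 1, 0 members passed, with backgrounds of 0.0115 and 0 percent. Before adjustment 31 were lower and 3 higher (p under 0.05, limma), again without a count over all genes. The median of the members at UV week 1 was -0.20, beside 0.05 over all genes. Between the 2 controls, 0 members passed (background 0.0517 percent lower and 0.046 percent higher), and 4 were lower and 0 higher before adjustment (p under 0.05, limma). Many members lay slightly lower in the later control, which is given as a description with no test. Of the 93, 74 lay lower in control week 8 than in control week 1 (79.6 percent, beside 50.6 percent of all genes), with a median of -0.08. The comparisons share the arrays of control week 1.

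A test of whether the UV effect differed between weeks 1 and 8, each against the control of its week, gave 0 members (limma; background 0 percent in both directions). In that test 0 members were lower and 4 were higher before adjustment (p under 0.05, limma). By the criteria of the study, a 2-fold change that passed the same threshold with less than 1.5-fold difference between the controls, 0 of the 93 genes passed at any UV week, where the background was 3.11 percent of genes.

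Leaving out single arrays moved these counts. Without UV week 8 array 551, 31 members were lower and 13 higher than in control week 1 (20.1 and 20.5 percent of all genes), and 24 were lower and 10 higher than in control week 8 (18.8 and 18.5 percent of all genes). Without array 552, or without array 555, 0 members passed in either comparison, and of all genes 3.65 or 2.75 percent were lower than in control week 1. Of the control week 1 arrays, leaving out array 12 gave 7 lower and 5 higher at UV week 8 (9.19 and 7.37 percent of all genes), leaving out array 13 gave 0 and 0 (2.57 and 1.13 percent), and leaving out array 16 gave 3 and 0 (4.64 and 2.47 percent). Array 551 is the UV week 8 array with the low beta-actin ratio (2.77), and arrays 552 and 555 have ratios of 5.14 and 4.90. At UV week 1, leaving out array 116, which has a ratio of 2.71, gave 12 members lower (1.63 percent of all genes), and leaving out control week 1 array 12 gave 1 (0.856 percent). At UV week 6, leaving out arrays 441, 443 or 445 gave 1, 0 and 0 lower (5.37, 5.99 and 3.36 percent of all genes) and 1, 2 and 1 higher (3.13, 4.76 and 2.13 percent), and leaving out control week 1 arrays 12, 13 or 16 gave 2, 0 and 1 lower (8.3, 1.68 and 3.81 percent) and 8, 1 and 1 higher (6.41, 1.02 and 2.3 percent). Without all 8 arrays of high ratio, when UV weeks 1, 6 and 8 keep a single array whose spread is taken from the other groups, 0 members passed at UV week 8 (1.87 percent of all genes lower than in control week 1) and 7 were lower at UV week 6 (6.24 percent of all genes).

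The members spread out in the arrays of high ratio. In each array the deviation of every member from its mean in control week 1 was taken, and the width from the 10th to the 90th percentile of these deviations was 0.449 to 1.56 in the 8 arrays of high ratio and 0.324 to 0.777 in the other 13. Over all genes the width was 0.617 to 1.57 and 0.372 to 0.959 in the same arrays. The 2 lowest widths among the arrays of high ratio were those of UV week 4 array 333 (0.449) and control week 1 array 12 (0.606). The part of RNA integrity in the differences between groups was not tested beyond the alternatives given here.

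**Figure D2:**
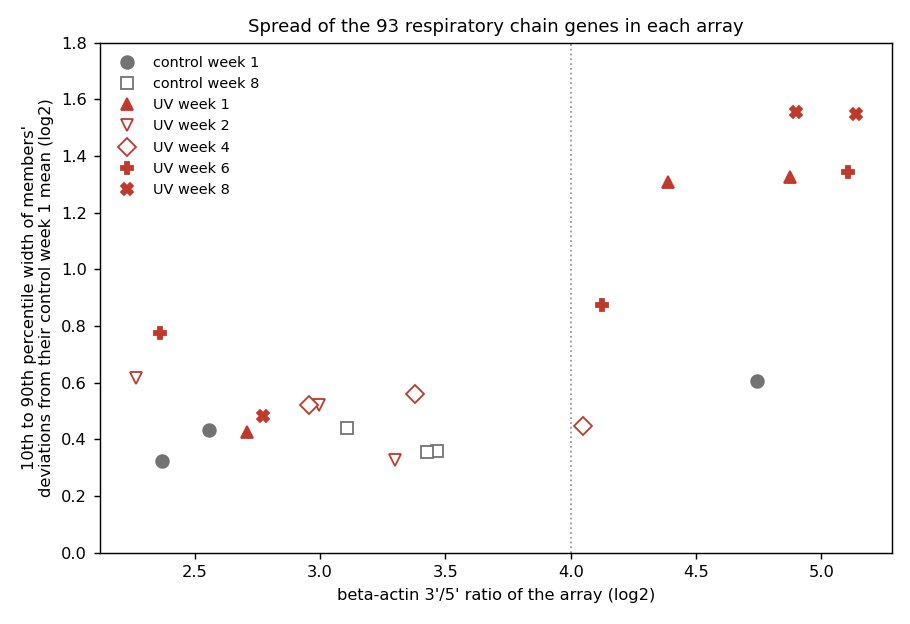
Width from the 10th to the 90th percentile of the deviations of the 93 respiratory chain genes from their control week 1 means (vertical axis, log2) against the beta-actin 3'/5' log2 ratio (horizontal axis), one symbol per array, grey for controls and red for UV groups. To the right of the dotted line at 4 the width reached 1.56, and to the left it stayed at or below 0.777.

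Members differed widely in their levels between the arrays of high ratio and the others. Medians were taken over the 8 and the 13 arrays. Of 93 genes, 20 (21.5 percent) were lower by at least 0.5 in the arrays of high ratio, beside 11.7 percent of all genes. Higher by at least 0.5 was 1 (1.08 percent), beside 3.59 percent of all genes. A difference of less than 0.2 was found for 47 (50.5 percent), near the 46.3 percent of all genes. Of the 8 arrays 7 are UV arrays, and 5 of the 13 are controls, so that these medians mix ratio and group. Differences were also taken within the 5 groups that hold arrays of both kinds and averaged over the groups. By these, 8 of 93 members (8.60 percent) were lower by at least 0.5, beside 7.46 percent of all genes. Higher by at least 0.5 were 0, beside 1.45 percent of all genes. These counts carry no test. The genes named in this paragraph were chosen after their values were seen. Atp5g2, one of the genes for the c ring of ATP synthase, had a median of 6.69 in the 8 arrays and 8.99 in the 13, with ranges of 6.24 to 8.19 and 8.34 to 9.59 that did not overlap. Ndufa10, an accessory subunit of complex I, had medians of 7.36 and 8.91, and Atp5b, the catalytic beta subunit of ATP synthase, 10.76 and 12.15. Uqcrc1, a core protein of complex III, had medians of 9.10 and 10.41. Within groups the differences of these 4 genes were -2.10, -1.22, -1.04 and -0.95. Atp5b lay at 12.38 in UV week 8 array 551 and at 10.41 and 10.31 in arrays 552 and 555, beside 12.05 to 12.16 in control week 8. Its difference from control week 8 was -1.09 with a standard error of 0.46 (adjusted p = 0.136, limma), and it did not pass. By contrast Atp5pb, a stalk subunit of ATP synthase, Sdha, the flavoprotein of complex II, and Cox5b, a subunit of complex IV, had ranges of 0.31, 0.32 and 0.33 over the 21 arrays at their brightest probe sets. Atp5pb and Cox5b each had a dimmer probe set that passed at UV week 8, by -0.56 and 0.62 (adjusted p = 0.0359 and 0.0184, limma).

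Complex I, the NADH dehydrogenase, contributed more members than any other complex. Of its core subunits 6 were tested, and Ndufs3, an iron-sulfur protein subunit, was lower at UV week 8. Its levels were 10.78, 11.06 and 11.04 in control week 1, 10.72, 10.79 and 10.82 in control week 8, and 10.73, 10.47 and 10.42 in UV week 8. The UV arrays lay below those of control week 1, and array 551 lay within the range of control week 8. The difference was -0.42 with a standard error of 0.13 (adjusted p = 0.0476, limma), and against control week 8 it was -0.24 (adjusted p = 0.253, limma).

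Among 28 accessory subunits of complex I, Ndufa8, Ndufb2 and Ndufb10 were lower at UV week 8 and 0 were higher, and the median of the 28 was 0.05. Ndufb4, the member of lowest mean level, lay between 3.12 and 4.16 over the arrays, near the 20th percentile of the arrays, and differed by -0.15 with a standard error of 0.17 (adjusted p = 0.551, limma). Ndufa8 is an accessory subunit on the intermembrane-space side. It stood at 10.78, 10.97 and 10.69 in control week 1, at 10.53, 10.38 and 10.57 in control week 8, and at 10.70, 9.65 and 9.52 in UV week 8. Array 551 thus lay among the controls and the other 2 about 1 unit below them. The difference was -0.85 with a standard error of 0.24 against control week 1 (adjusted p = 0.0317, limma) and -0.54 against control week 8 (adjusted p = 0.163, limma). Without the arrays of high ratio it was -0.13. Ndufb2 had the same arrangement, with 10.52, 10.68 and 10.24 in control week 1, 10.19, 10.10 and 10.15 in control week 8, and 10.37, 9.60 and 9.32 in UV week 8. Its difference was -0.71 with a standard error of 0.23 (adjusted p = 0.0483, limma), and -0.09 without the arrays of high ratio. Its other probe sets gave -0.67 and 0.17, and neither passed (adjusted p = 0.0839 and 0.435, limma). Ndufb10 differed by -0.41 with a standard error of 0.13 (adjusted p = 0.0473, limma). It read 11.23, 11.38 and 11.09 in control week 1, 11.03 to 11.25 in control week 8, and 10.99, 10.86 and 10.63 in UV week 8. Its UV week 8 arrays lay below all 6 control arrays, though array 551 at 10.99 was close to the lowest control at 11.03. Against control week 8 the difference was -0.31 (adjusted p = 0.138, limma), and without the arrays of high ratio it was -0.25 against control week 1.

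Of 8 assembly factors of complex I, Ndufaf5, which modifies a subunit during early assembly, was lower at UV weeks 6 and 8. Its levels were 7.09, 6.78 and 6.78 in control week 1 and 6.79, 6.64 and 6.82 in control week 8. In UV week 8 they were 6.41, 6.44 and 6.54, and in UV week 6 they were 6.52, 6.36 and 6.38. All 6 of these arrays lay below all 6 control arrays, array 551 and array 443 included, which have low ratios. The difference was -0.47 at UV week 6 (adjusted p = 0.0207, limma) and -0.42 at UV week 8 (adjusted p = 0.0308, limma), each with a standard error of 0.12, and -0.29 against control week 8 (adjusted p = 0.131, limma). At UV week 1 it was -0.45 and did not pass (adjusted p = 0.137, limma). With the beta-actin ratio as a covariate the difference at UV week 8 was -0.51, and without the arrays of high ratio it was -0.37 and did not pass.

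Complex II, succinate dehydrogenase, is both part of the chain and an enzyme of the citric acid cycle, and all 4 of its subunits are nuclear genes. Sdhb, the iron-sulfur subunit, was lower at UV week 8. It read 10.54, 11.00 and 10.66 in control week 1, 10.70, 10.60 and 10.73 in control week 8, and 10.67, 9.59 and 9.38 in UV week 8. Array 551 lay among the controls, and the other 2 lay below every control array. The difference was -0.85 with a standard error of 0.24 (adjusted p = 0.0288, limma), and against control week 8 it was -0.80 (adjusted p = 0.0509, limma). Without the arrays of high ratio it was -0.16. The membrane anchors Sdhc and Sdhd had differences of -0.71 and -0.56 that did not pass (adjusted p = 0.110 and 0.178, limma), and Sdha differed by -0.04 with a standard error of 0.10 (adjusted p = 0.787, limma). These 3 are given to complete the complex and were named after their values were seen. Of the 4 assembly factors of complex II, Sdhaf3 was higher at UV week 6, with 8.52, 8.12 and 8.46 beside 7.93, 7.54 and 7.70 in control week 1. The groups did not overlap, and the difference was 0.64 with a standard error of 0.19 (adjusted p = 0.0373, limma). At UV week 8 it was 0.50 and did not pass (adjusted p = 0.0888, limma). The UV week 6 level of 8.12 came from array 443, of low ratio, and the others from arrays of high ratio. In the arrays of high ratio Sdhaf3 was higher by 0.54 in the medians and by 0.34 within groups.

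Of the 8 subunits of complex III, Uqcrfs1, the Rieske iron-sulfur protein, was lower at UV week 8. Its levels were 11.05, 11.50 and 11.26 in control week 1, 11.18, 11.13 and 11.27 in control week 8, and 11.12, 10.56 and 10.38 in UV week 8. Array 551 lay just below control week 8 and within control week 1. The difference was -0.58 with a standard error of 0.18 (adjusted p = 0.0412, limma), and -0.51 against control week 8 (adjusted p = 0.0838, limma). Uqcrb, which binds ubiquinone in this complex, differed by 0.09 with a standard error of 0.10 (adjusted p = 0.567, limma).

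Of the 9 F1 and stalk subunits of ATP synthase, Atp5c1, the rotating gamma subunit, was lower at UV weeks 6 and 8, and of the 8 membrane subunits none passed. Atp5c1 read 12.35, 12.74 and 12.63 in control week 1, 12.43, 12.33 and 12.61 in control week 8, 12.11, 12.06 and 11.50 in UV week 6, and 12.31, 11.59 and 11.39 in UV week 8. Both UV groups lay below all control arrays, though array 551 at 12.31 was close to the lowest control at 12.33. The difference was -0.68 at UV week 6 (adjusted p = 0.0483, limma) and -0.81 at UV week 8 (adjusted p = 0.0240, limma), each with a standard error of 0.22, and -0.70 against control week 8 (adjusted p = 0.0579, limma). Without the arrays of high ratio the difference at UV week 8 was -0.38. A further probe set of Atp5c1 gave -0.70 at UV week 6 (adjusted p = 0.0335, limma) and -0.58 at UV week 8 (adjusted p = 0.0654, limma).

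**Figure D3:**
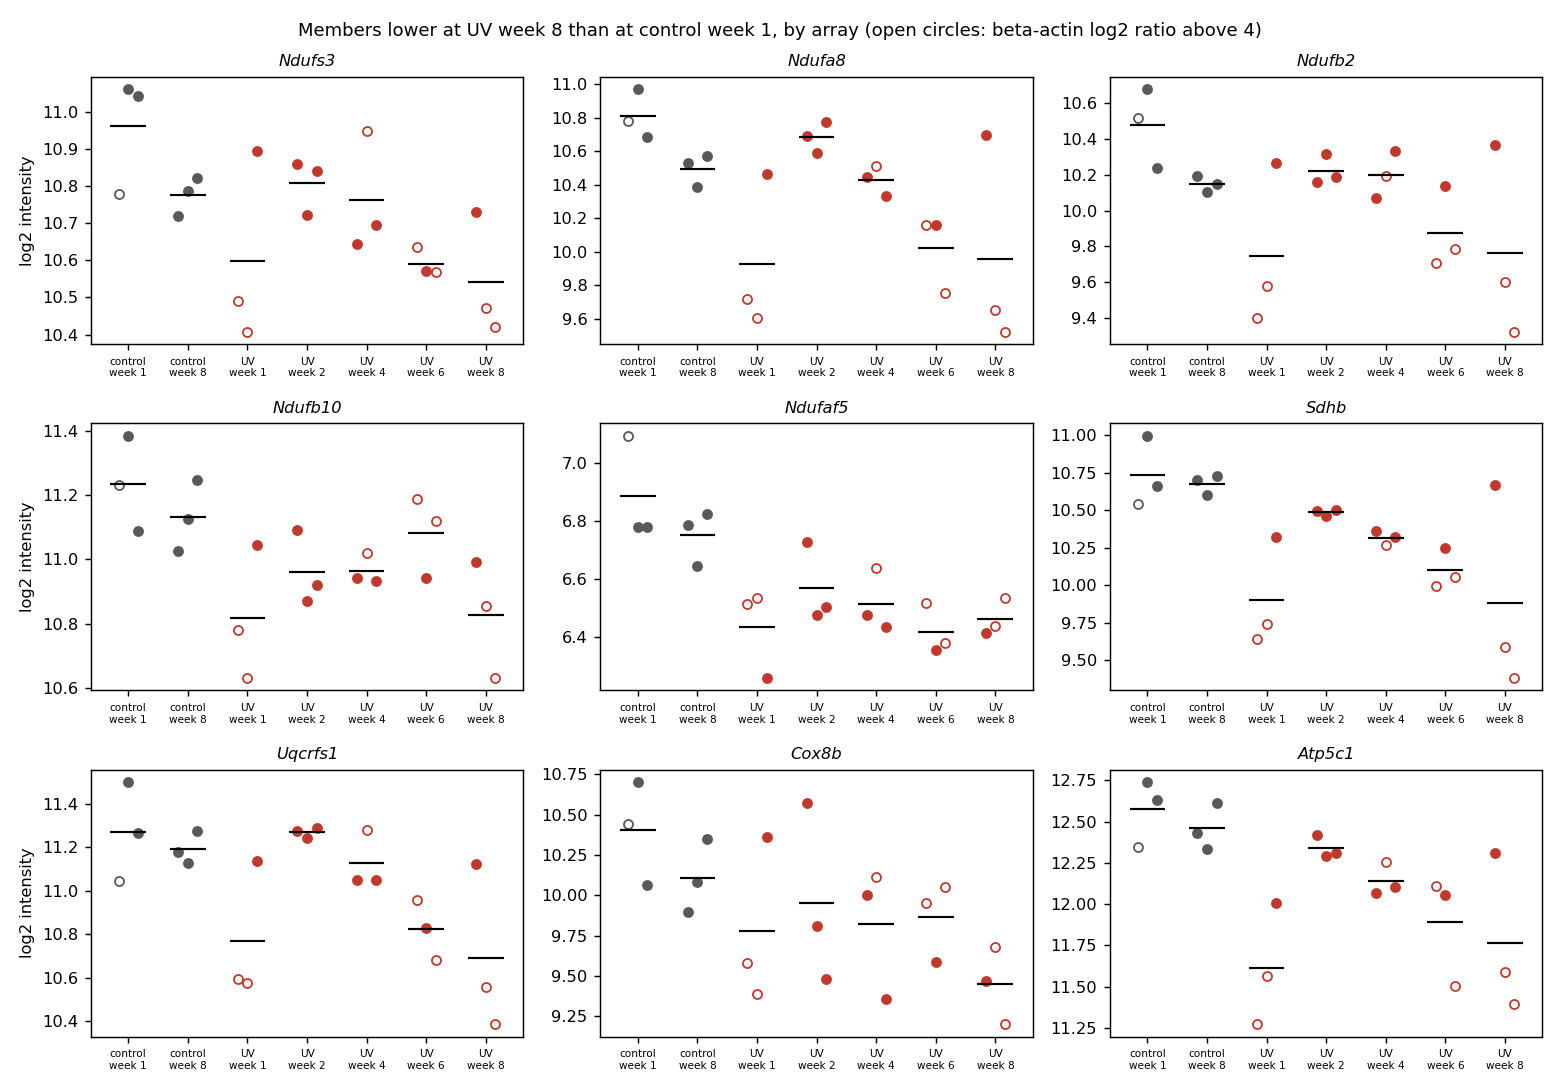
Log2 intensity (vertical axis) of the 9 members that were lower at UV week 8 than at control week 1, one point per array in each of the 7 groups (horizontal axis, grey for controls, red for UV), with horizontal lines at the group means and open circles for the 8 arrays whose beta-actin log2 ratio is above 4. The UV week 8 array of low ratio lay within the range of the control arrays in 5 of the 9 genes (Ndufs3, Ndufa8, Ndufb2, Sdhb, Uqcrfs1) and below all of them in Ndufb10, Ndufaf5, Cox8b and Atp5c1.

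Complex IV, cytochrome c oxidase, had 10 widely expressed subunits in the test and none passed at any week, with a median of 0.09 at UV week 8 against control week 1 and differences from -0.42 to 0.31. Of the tissue-restricted forms other than those of muscle, Cox8c, a testis form, was higher at UV week 6. It read 7.78, 7.45 and 7.75 there beside 7.10, 6.92 and 7.11 in control week 1, with no overlap. The difference was 0.62 with a standard error of 0.13 (adjusted p = 0.00682, limma), and its other probe set gave 0.23 (adjusted p = 0.341, limma). At UV week 8 it was 0.34 and did not pass (adjusted p = 0.0791, limma). Cox4i2, a lung form, Cox6b2, a testis form, and Ndufa4l2, a paralog of Ndufa4, had differences of -0.06, 0.09 and -0.34 at UV week 8 (adjusted p = 0.804, 0.763 and 0.324, limma). Cox7b2 stayed below the filter, with 2.91 to 3.47 over the arrays.

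The muscle forms Cox6a2, Cox7a1 and Cox8b are described apart from the widely expressed subunits. At UV week 8 their differences from control week 1 were -0.55, -0.87 and -0.95, and of the 3 only Cox8b passed (adjusted p = 0.106, 0.135 and 0.0366, limma). Against control week 8 they were -0.50, -0.49 and -0.66, and none passed (adjusted p = 0.161, 0.406 and 0.142, limma). Cox8b read 10.44, 10.70 and 10.07 in control week 1, 9.90, 10.08 and 10.35 in control week 8, and 9.47, 9.68 and 9.20 in UV week 8. The UV week 8 arrays lay below all 6 control arrays, array 551 included. The difference had a standard error of 0.28, and it was -0.92 without the arrays of high ratio and -0.99 with the beta-actin ratio as a covariate. Cox6a2 read 10.66, 11.04 and 10.43 in control week 1, 10.52, 10.62 and 10.81 in control week 8, and 10.20, 10.37 and 9.89 in UV week 8, again without overlap. Its other probe set gave 0.17 at UV week 8. Cox7a1 read 10.27, 10.19 and 9.43 in control week 1, 9.28, 9.60 and 9.87 in control week 8, and 8.91, 9.58 and 8.79 in UV week 8, and the groups overlapped.

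Their widely expressed counterparts Cox6a1, Cox7a2 and Cox8a differed by 0.23, 0.16 and -0.42 at UV week 8, and none passed (adjusted p = 0.132, 0.295 and 0.337, limma). Cox6a1 lay between 13.74 and 13.95 in the 6 controls and at 14.08, 14.03 and 14.08 in UV week 8. Cox7a2 lay between 13.54 and 13.74 in the controls and at 13.61, 13.89 and 13.97 in UV week 8. Cox8a read 10.34 in array 551 and 8.85 and 9.09 in arrays 552 and 555, beside 9.48 to 10.14 in the controls. It thus lay above the controls in the array of low ratio and below them in the other 2.

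The back skin of the mouse carries a thin sheet of skeletal muscle, and skeletal muscle markers were lower in the same comparisons. Of 16 markers, all measured, 13 were lower at UV week 8 than at control week 1 and 0 were higher, with a median of -1.37, and 7 were lower than at control week 8, with a median of -0.99. Their mean level per array ranged from 11.84 to 12.29 in control week 1, from 11.72 to 11.83 in control week 8 and from 10.27 to 10.99 in UV week 8. The lowest and the highest group mean of a single marker in UV week 8 were 7.83 and 13.71, so that no marker was near the 20th percentile of the arrays (3.33 to 3.63). The part of muscle content in the difference of Cox8b was not tested. Brown adipocytes also make Cox7a1 and Cox8b. Of their 6 markers, 0 were lower at UV week 8 than at control week 1, and 1, Dio2, was higher (0.95, adjusted p = 0.0362, limma). Against control week 8, 0 passed in either direction, and Dio2 differed by 0.27 (adjusted p = 0.541, limma). Ucp1, the uncoupling protein that defines these cells, had mean levels of only 3.97 in control week 1 and 4.46 in UV week 8. These lay below the array medians (4.91 to 5.06), so that the level of Ucp1 says little about these cells. In bulk skin, fewer cells of a type and less RNA per cell cannot be told apart.

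To set the isoforms against the muscle markers without the differences between groups, each array was taken as its deviation from its group mean, over 21 arrays in 12 relations (100000 permutations within groups, two-sided). With the mean of the muscle markers, Cox6a2 correlated at r = 0.76 and rho = 0.78 (adjusted p = 0.0069 and 0.0119, permutation test). Cox8b correlated at r = 0.75 and rho = 0.74 (adjusted p = 0.0102 and 0.0119, permutation test), and Cox7a1 at r = 0.63 and rho = 0.68 (adjusted p = 0.0316 and 0.0272, permutation test). The unadjusted p of r were 0.00065, 0.00256 and 0.0105 by permutation, and without the 2 arrays farthest from the median of the marker mean r was 0.71, 0.74 and 0.63 in the same order. The counterparts Cox6a1, Cox7a2 and Cox8a had r of 0.00, -0.32 and 0.32 with the same markers, and rho of 0.02, -0.18 and 0.19 (adjusted p of r = 0.998, 0.534 and 0.534, adjusted p of rho = 0.927, 0.734 and 0.734, permutation test). Without the 2 farthest arrays r was 0.18, -0.01 and 0.15. The differences between these correlations were not tested. With the beta-actin ratio, Cox8a correlated at r = -0.88 and rho = -0.87 (adjusted p = 0.0069 and 0.0119, permutation test, unadjusted 0.00115 and 0.00297), and r stayed at -0.88 without the 2 farthest arrays. The muscle forms had r of 0.15, 0.37 and 0.08 for Cox6a2, Cox7a1 and Cox8b (adjusted p = 0.689, 0.299 and 0.827, permutation test), rho of 0.11, 0.32 and 0.13 (adjusted p = 0.739, 0.422 and 0.739, permutation test), and r of -0.05, 0.19 and -0.05 without the 2 farthest arrays. Cox7a2 had r = 0.62 and rho = 0.56 (adjusted p = 0.0638 and 0.0935, permutation test) and Cox6a1 r = 0.44 and rho = 0.39 (adjusted p = 0.291 and 0.312, permutation test), and without the 2 farthest arrays r was 0.74 and 0.34.

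**Figure D4:**
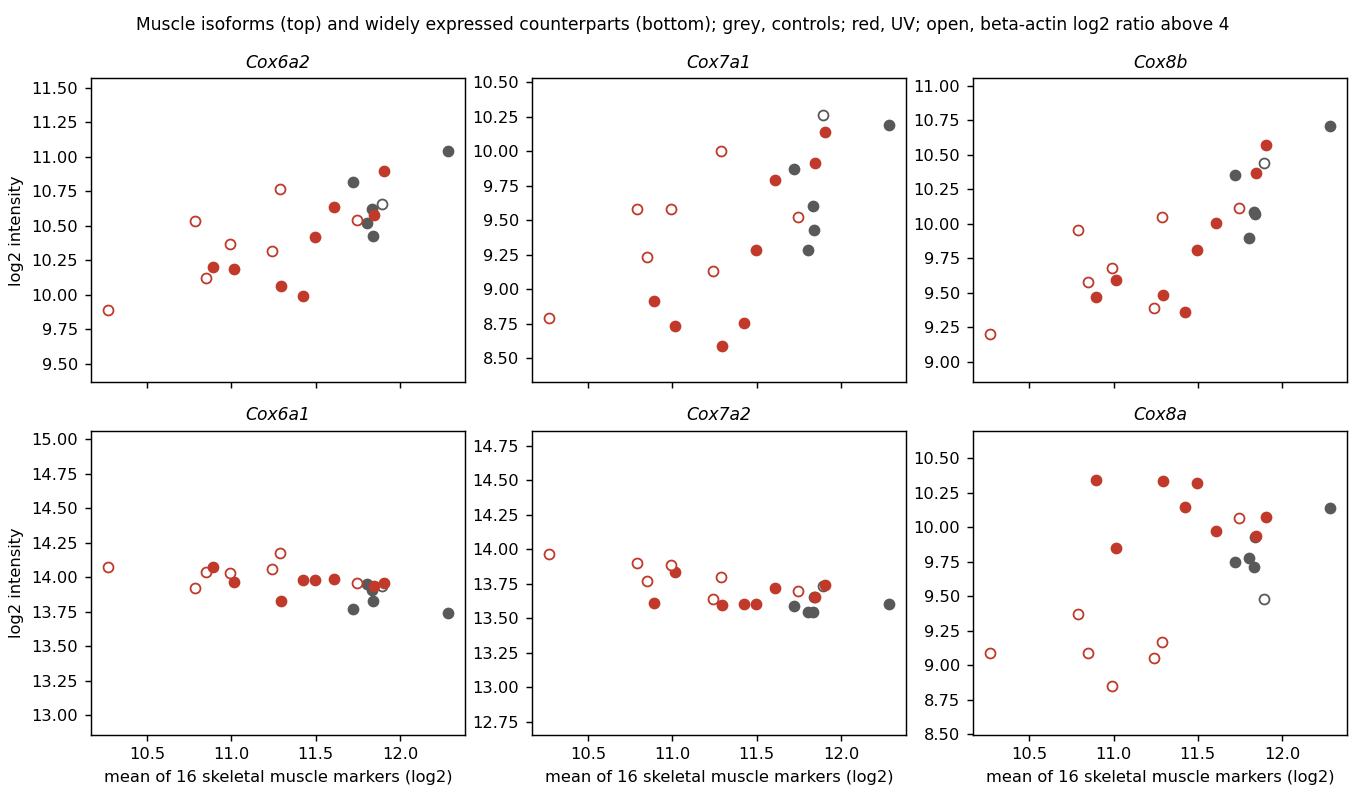
Log2 intensity of the muscle forms Cox6a2, Cox7a1 and Cox8b (top) and of Cox6a1, Cox7a2 and Cox8a (bottom) against the mean of 16 skeletal muscle markers (horizontal axis, log2), one point per array, grey for controls, red for UV groups, open for the 8 arrays of high beta-actin ratio, with the same vertical span in each panel. Within groups r with the marker mean was 0.76, 0.63 and 0.75 for the muscle forms and 0.00, -0.32 and 0.32 for the others, and the open points of Cox8a lie mostly below its filled ones.

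The promoters of Cox7a1 and Cox8b are shown beside those of their counterparts because the pairs are compared above. Sequences are the 250 bases before the gene start in RefSeq (GRCm38.p6), read 5′ to 3′ on the strand of the gene, with the E-box CANNTG in capitals. The E-box is the element that basic helix-loop-helix factors such as the myogenic factors bind. Cox7a1 lies at chr7:30183921-30184170 (plus strand), Cox8b at chr7:140900447-140900696 (minus), Cox7a2 at chr9:79759854-79760103 (minus) and Cox8a at chr19:7217617-7217866 (minus).
Cox7a1: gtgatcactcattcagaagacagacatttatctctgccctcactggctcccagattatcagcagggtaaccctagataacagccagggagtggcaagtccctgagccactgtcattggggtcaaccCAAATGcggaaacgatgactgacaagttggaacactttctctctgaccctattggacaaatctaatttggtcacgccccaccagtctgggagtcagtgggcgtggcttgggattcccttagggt
Cox8b: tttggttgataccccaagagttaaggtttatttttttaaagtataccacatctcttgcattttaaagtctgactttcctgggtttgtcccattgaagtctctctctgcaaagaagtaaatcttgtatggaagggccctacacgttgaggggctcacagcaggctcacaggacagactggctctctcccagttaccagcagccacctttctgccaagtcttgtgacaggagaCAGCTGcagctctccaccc
Cox7a2: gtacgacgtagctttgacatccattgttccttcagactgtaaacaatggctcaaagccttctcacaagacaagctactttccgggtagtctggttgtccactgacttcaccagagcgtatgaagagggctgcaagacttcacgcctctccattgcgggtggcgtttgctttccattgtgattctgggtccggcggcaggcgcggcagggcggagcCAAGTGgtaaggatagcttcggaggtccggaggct
Cox8a: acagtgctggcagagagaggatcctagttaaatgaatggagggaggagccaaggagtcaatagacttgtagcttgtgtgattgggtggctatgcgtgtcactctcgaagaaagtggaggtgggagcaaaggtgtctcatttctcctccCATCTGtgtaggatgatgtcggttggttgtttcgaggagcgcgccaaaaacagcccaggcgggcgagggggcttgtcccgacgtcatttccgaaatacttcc

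Each of the 4 windows held 1 E-box. At least 1 was present in 66.2 percent of all 32851 windows and in 63.9 percent of the 83 windows of member genes, which came from 78 matched genes. The windows differed in CG dinucleotides, with 4 in Cox7a1 and 1 in Cox8b but 14 in Cox7a2 and 11 in Cox8a, beside a median of 15 over the member windows and 6 over all windows. Motifs of nuclear respiratory factors were counted on both strands in the same windows, and in these counts no match of one motif was removed where it overlapped another. The GC-rich motif of NRF1, which activates many respiratory chain genes, was present in 15.7 percent of member windows and 3.74 percent of all. The ETS motif CCGGAAG, which GABP binds, was present in 19.3 and 6.91 percent, and TGACCTT, which estrogen-related receptors bind, in 6.02 and 4.08 percent. These shares were not adjusted for the CG dinucleotides of the windows, of which the member windows held more. Matches of single genes were listed only for the 4 windows above and for Ndufa8. How many of the genes called lower at UV week 8 hold a motif is therefore not given, and a link of motif and difference was not tested. Ndufa8, one of the called genes, held the NRF1 motif. Its window at chr2:36049339-36049588 (minus strand) is shown with that motif and 2 E-boxes in capitals.
Ndufa8: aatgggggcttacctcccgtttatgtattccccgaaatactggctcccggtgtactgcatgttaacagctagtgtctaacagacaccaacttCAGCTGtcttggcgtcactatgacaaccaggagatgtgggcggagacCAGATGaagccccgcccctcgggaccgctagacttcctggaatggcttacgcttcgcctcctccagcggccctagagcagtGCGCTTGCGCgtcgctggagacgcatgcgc

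Probe sets of the same gene did not always move together. Counted by probe set, 14 of 180 were lower and 6 were higher at UV week 8 than at control week 1, with backgrounds of 6.73 and 5.39 percent of probe sets. At UV week 6 it was 9 lower and 7 higher, with backgrounds of 6.3 and 5.43 percent. Against control week 8, 0 were lower and 2 were higher, with backgrounds of 4.3 and 2.56 percent. Before adjustment 23 were lower and 26 higher there (p under 0.05, limma). By the criteria of the study 2 of the 180 passed, beside 3.15 percent of all probe sets, one of Atp5a1 and one of Ndufab1.

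Atp5a1 encodes the alpha subunit of ATP synthase and had 3 probe sets. The brightest differed by 0.10 at UV week 8 (adjusted p = 0.536, limma). Another was higher by 1.51 with a standard error of 0.44 (adjusted p = 0.0336, limma), and the third differed by -1.03 with a standard error of 0.37 (adjusted p = 0.0704, limma). The rising probe set read 8.07, 7.16 and 7.17 in control week 1, 7.87, 8.04 and 8.23 in control week 8, and 7.82, 9.99 and 9.11 in UV week 8, and the one with the negative difference read 11.11, 12.10 and 11.88, then 11.59, 11.40 and 11.60, then 11.77, 10.03 and 10.20. In both, array 551 overlapped the controls and arrays 552 and 555 lay outside them. Ndufab1, the mitochondrial acyl carrier protein, was the only member with called probe sets in both directions in one comparison. At UV week 6 one was higher by 1.05 (adjusted p = 0.0289, limma) and one differed by -0.52 (adjusted p = 0.0410, limma), while the brightest differed by -0.20 (adjusted p = 0.242, limma).

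The following genes were chosen after their values were seen. Atp5pb, Ndufb6, Ndufb9, Ndufc2 and Uqcrc2 each had a dimmer probe set that was lower at UV week 8, by -0.56, -0.66, -0.64, -0.94 and -0.73 (adjusted p = 0.0359, 0.0248, 0.0386, 0.0122 and 0.0264, limma). Their brightest probe sets differed by 0.17, 0.30, 0.06, 0.33 and 0.12, and none passed (adjusted p = 0.219, 0.130, 0.778, 0.146 and 0.542, limma). Probe sets with a higher level came from Atp5a1, Cox5b, Ndufab1, Ndufb8 and Ndufs4. The one of Ndufb8, an accessory subunit of complex I, was higher by 0.86 than control week 8 (adjusted p = 0.0454, limma), and one of Ndufs4, whose loss causes complex I deficiency, by 0.76 (adjusted p = 0.0326, limma). The brightest probe sets of these genes differed by 0.12 from control week 8 in both cases (adjusted p = 0.560 for Ndufb8 and 0.697 for Ndufs4, limma). The Ndufb8 probe set read 6.62 in array 551 and 7.63 and 7.70 in arrays 552 and 555, beside 6.43 to 6.49 in control week 8, so that array 551 lay above that control, though within control week 1 (6.26 to 6.87).

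**Figure D5:**
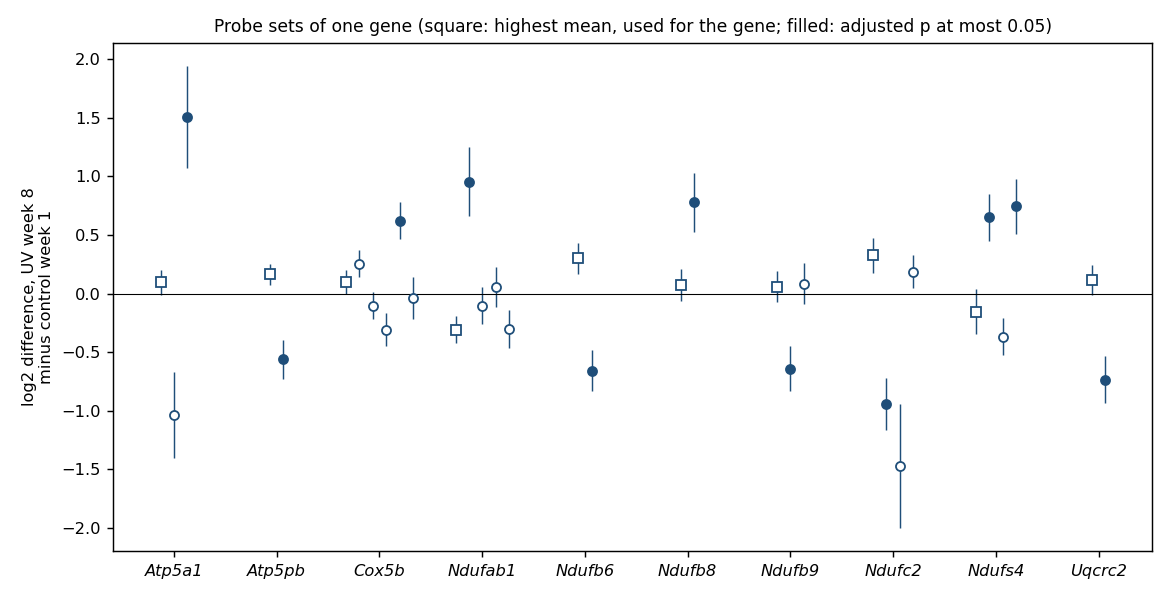
Difference in log2 intensity between UV week 8 and control week 1 with its standard error (vertical axis) for every tested probe set of 10 respiratory chain genes (horizontal axis) in which a probe set other than the brightest was called; squares mark the brightest probe set, and filled symbols an adjusted p of at most 0.05. Atp5a1 spans from -1.03 to 1.51, and no square is filled.

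Neighbouring mitochondrial lists gave calls in both directions, to be read beside the 8.35 percent of all genes lower and 5.72 percent higher than in control week 1, and the 5.29 and 2.8 percent against control week 8. Of 12 enzymes of the citric acid cycle, 4 were lower at UV week 8 than at control week 1 and 0 were higher, with a median of -0.21. Dld, the shared dihydrolipoamide dehydrogenase, differed by -1.17 (adjusted p = 0.0466, limma), Idh3a, a subunit of isocitrate dehydrogenase, by -1.01 (adjusted p = 0.0476, limma), and Suclg2, a subunit of succinyl-CoA ligase, by -0.66 (adjusted p = 0.0229, limma). Idh3a and Suclg2 were also lower than at control week 8. Of 11 genes for cytochrome c and coenzyme Q synthesis, 2 were higher against both controls, Coq3 by 0.45 and Coq4 by 0.53 over control week 1 (adjusted p = 0.0304 and 0.0236, limma) and by 0.51 and 0.50 over control week 8 (adjusted p = 0.0271 and 0.0420, limma). Of 17 assembly factors of complexes III and IV, Cox11, which delivers copper to complex IV, was higher than at control week 1, and 0 were lower. Cox11 differed by 0.47 there (adjusted p = 0.0244, limma) and by 0.21 from control week 8, where it did not pass (adjusted p = 0.274, limma).

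Of 15 regulators of mitochondrial gene expression, 2 were lower and 1 was higher at UV week 8 than at control week 1. Polg, the polymerase of mitochondrial DNA, differed by -0.92 (adjusted p = 0.0114, limma) and by -0.77 from control week 8 (adjusted p = 0.0382, limma). Gabpa, the DNA-binding part of GABP, differed by -0.53 (adjusted p = 0.0262, limma), and by -0.47 from control week 8, where it did not pass (adjusted p = 0.0581, limma). Tfb2m, a mitochondrial transcription factor, was higher by 0.47 (adjusted p = 0.0331, limma) and by 0.69 over control week 8 (adjusted p = 0.00877, limma). Of 11 glycolysis enzymes, 2 were lower against both controls, Pfkm, the muscle phosphofructokinase, and Aldoa, the aldolase of muscle, by -1.48 and -1.09 from control week 1 (adjusted p = 0.0396 and 0.0140, limma). Hair follicle markers were lower at UV week 8 than at control week 1 in 9 of 11, and white adipocyte markers in 3 of 7. Fibroblast markers were lower there in 3 of 8. Against control week 8 it was 4 of 11, 0 of 7 and 2 of 8 in the same order. The medians of control week 8 against control week 1 were -1.31, -0.61 and -0.07. The part of these cell types in the members' differences was not tested.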

How the data were processed

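Total RNA from dorsal skin was hybridised to Affymetrix arrays of the mouse genome (21 arrays, 7 groups of 3). The deposited values are intensities that the authors had normalised. The study's methods name Microarray Suite normalisation and the submitters' processing notes name RMA, so that the exact method is unsettled. The values were not logged (4.35 to 35056), and array medians lay between 30.1 and 33.3. The number of arrays limits the precision.

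Values were floored at 1 and taken to log2. Probe sets at or above the 20th percentile of the array in at least 1 array were kept (40540 of 45101), and control probe sets (64) were left out. Detection calls were not used here. A model with one mean per group was fitted to the 21 arrays by lmFit and eBayes (limma 3.58.1, R 4.3.3). Benjamini-Hochberg adjustment ran over the 40540 probe sets, and a call needed 0.05 or less with no minimum fold. A gene was read at its tested probe set of highest mean. Symbols came from the platform annotation, updated through RefSeq, and 10 probe sets of several genes were not used. Relations and figures used Python 3.11.15, numpy 2.4.6, pandas 2.3.3, scipy 1.17.1 and matplotlib 3.10.9.

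Genes were named by rule: the muscle forms and their counterparts, other tissue-restricted forms, in each role up to 3 called genes of largest change in each direction at UV week 8 and up to 2 in other comparisons, members past the study's criteria or with probe sets called in opposite directions, and members of highest and lowest mean. The members and lists were chosen with earlier results of these data known. The fit was tested on simulated data for UV week 8 against control week 1, with 200 of 40540 probe sets changed. It recovered 70 percent of changes of 1 and 10 percent of changes of 0.5 on the log2 scale, with 3 false calls. The simulated noise was independent between probe sets and arrays. It held no shift shared by the probe sets of an array, so that these rates need not hold for the real arrays. Alternatives were no filter, quantile normalisation, an added 16 before log2, all probe sets, a fit on the compared groups alone, the beta-actin or Gapdh ratio as a covariate, 1.5-fold or no control exclusion for the study's criteria, and each array left out. Leaving out the 8 arrays of beta-actin ratio above 4 was chosen after seeing the data.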

Additional observations from a re-analysis of the deposited data

How the results depend on the processing

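No paired analysis was possible because the array numbers are not shared between groups. Counts of members are followed in parentheses by the share of all genes called in the same fit. Counts over all probe sets are followed by the share of all probe sets instead. At UV week 8 against control week 1 (9 lower, 0 higher, 8.35 and 5.72 percent), 4 members were lower after quantile normalisation (6.01 percent), 4 with the beta-actin ratio (7.63 percent) and 15 with the Gapdh ratio (11.8 percent) as a covariate, 0 in the fit on the compared groups alone (0.259 percent), 0 without the 8 arrays of high ratio (1.87 percent) and 14 over all probe sets (6.73 percent). Members higher were 2 after quantile normalisation (7.03 percent), 2 with 16 added (5.87 percent), 5 with the Gapdh ratio (8.83 percent) and 6 over all probe sets (5.39 percent). With single arrays left out, 0 to 31 were lower and 0 to 13 higher (2.57 to 20.1 and 1.13 to 20.5 percent). Against control week 8 (0 and 0, 5.29 and 2.8 percent), 1 was lower with 16 added (5.47 percent), 1 with the beta-actin ratio (5.34 percent) and 13 with the Gapdh ratio (13.7 percent), and 6 were higher with the Gapdh ratio (10.9 percent) and 2 over all probe sets (2.56 percent). With single arrays left out, 0 to 24 were lower and 0 to 10 higher (0.713 to 18.8 and 0.299 to 18.5 percent).

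At UV week 6 (3 lower, 2 higher, 7.65 and 5.29 percent), 0 members were lower after quantile normalisation (4.46 percent), 9 with the Gapdh ratio (11.8 percent), 7 without the arrays of high ratio (6.24 percent) and 9 over all probe sets (6.3 percent). Members higher were 4 with 16 added (5.3 percent), 4 with the beta-actin ratio (6.36 percent), 4 with the Gapdh ratio (8.56 percent), 0 in the fit on the compared groups alone (1.3 percent), 0 without the arrays of high ratio (2.95 percent) and 7 over all probe sets (5.43 percent). With single arrays left out, 0 to 2 were lower and 1 to 8 higher (1.68 to 8.3 and 1.02 to 6.41 percent). At UV week 4, 2 were lower without the arrays of high ratio (4.13 percent). At UV week 1, 1 was lower with the beta-actin ratio (0.103 percent) and 2 with the Gapdh ratio (0.333 percent), and 0 to 12 with single arrays left out (0 to 1.63 percent). By the criteria of the study (0, 3.11 percent), 7 passed at 1.5-fold (11.3 percent), 2 over all probe sets (3.15 percent) and 2 with the Gapdh ratio (3.57 percent). With single arrays left out 0 to 12 passed, the 12 without UV week 8 array 551 (8.67 percent). The counts of control week 8 against control week 1, of UV week 2 and of the interaction stayed at 0 in every alternative run. The direction turned for 2 genes, each at another probe set at UV week 8: Ndufb2 (0.17) and Cox6a2 (0.17). The cause of these changes was not tested.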
